A study of Chlorocebus sabaeus with 6 samples.

Results

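The Notch genes described here are 10 rows of the deposited expression table, picked by gene symbol: the receptors NOTCH1, NOTCH2, NOTCH3 and NOTCH4, the ligands JAG1, JAG2, DLL1 and DLL4, and the target genes HES1 and HEY1. All 10 were found among the 18050 genes of the table, each as a single row. RNA was sequenced from COS7, a fibroblast-like African green monkey (Chlorocebus sabaeus) kidney line immortalised with SV40, in 3 samples labelled as ATL2/3 knockout (DKO) and 3 labelled WT. Both genotypes were grown in DMEM with 10% fetal bovine serum. ATL2 and ATL3 encode atlastins, which fuse membranes of the endoplasmic reticulum. The labels do not say how many knockout clones were sampled or whether samples of a genotype were separate cultures, so p-values here describe how these particular samples vary, a variation that may be technical.

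Notch is a receptor read out by direct contact between cells. A Jagged or Delta-like ligand on one cell pulls on the receptor of its neighbour, a sheddase and then gamma-secretase cut the receptor, and the released intracellular domain enters the nucleus, where it joins the DNA-binding protein RBPJ and a Mastermind coactivator. Genes of the HES and HEY families, which encode basic helix-loop-helix repressors, are the classical targets. In the kidney, the pathway is known for its part in setting the proximal nephron and podocyte lineages during development.

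In DKO cells the target gene HES1 stood at 0.315 of its WT level (95% interval 0.230 to 0.432, 3 samples per genotype here and below) and HEY1 at 0.184 (0.148 to 0.228). The ligand JAG2 was 3.99-fold higher (3.0 to 5.3) and JAG1 stood at 0.658 of WT (0.552 to 0.784). The abundant receptor NOTCH2 was 1.3-fold higher (1.14 to 1.5), and NOTCH1 was not called. NOTCH3, NOTCH4, DLL1 and DLL4 had mean levels of at most 0.163 FPKM in either genotype. FPKM is the read count scaled by the authors to transcript length and library size, and folds are from edgeR's fit of the estimated counts, DKO over WT.

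Library totals were 14197344 to 15693049 estimated counts. ATL2 had 7.38, 6.65 and 3.78 FPKM in the DKO samples and 30.54, 29.17 and 32.16 FPKM in the WT samples. ATL3 had 5.22, 5.93 and 3.50 FPKM in DKO and 37.33, 34.73 and 35.36 FPKM in WT. DKO replicate 3 stood apart from the other DKO samples on the second principal component of log2 library-scaled counts (9.41% of the variance, with scores of 49.1 for DKO replicate 3 and -25.9 and -28.0 for DKO replicates 1 and 2), so results are also given without it where it matters. Of the fibroblast markers listed, VIM and FN1 were abundant, at 1320 and 207 FPKM in DKO and 1530 and 1840 FPKM in WT, whereas COL1A2, COL3A1 and DCN had at most 7 counts summed over a genotype and THY1 had 0 in all 6 libraries.

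Of the 10 genes, 8 passed the filter on low counts. At an adjusted p below 0.05 (edgeR's quasi-likelihood test, Benjamini-Hochberg over the 13094 genes tested) 2 of them were higher in DKO, 4 were lower and 2 were not called. Over the whole set of tested genes the test called 45.5%, with 23.3% higher and 22.2% lower. The median log2 fold change of the 8 was -0.22 and the median of its size 1.21, beside -0.01 and 0.47 over all tested genes. NOTCH3 passed the filter through its WT counts alone, so its entry into the test was itself tied to the genotype in which it was higher. NOTCH4 reached the filter's minimum in 3 DKO and 2 WT samples. Without DKO replicate 3 the counts were again 2 higher and 4 lower, where 74.6% of all genes tested were called, 36.0% higher and 38.6% lower. Calls that single genes gained without that sample, given below, are to be read beside this share.

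**Figure D1:**
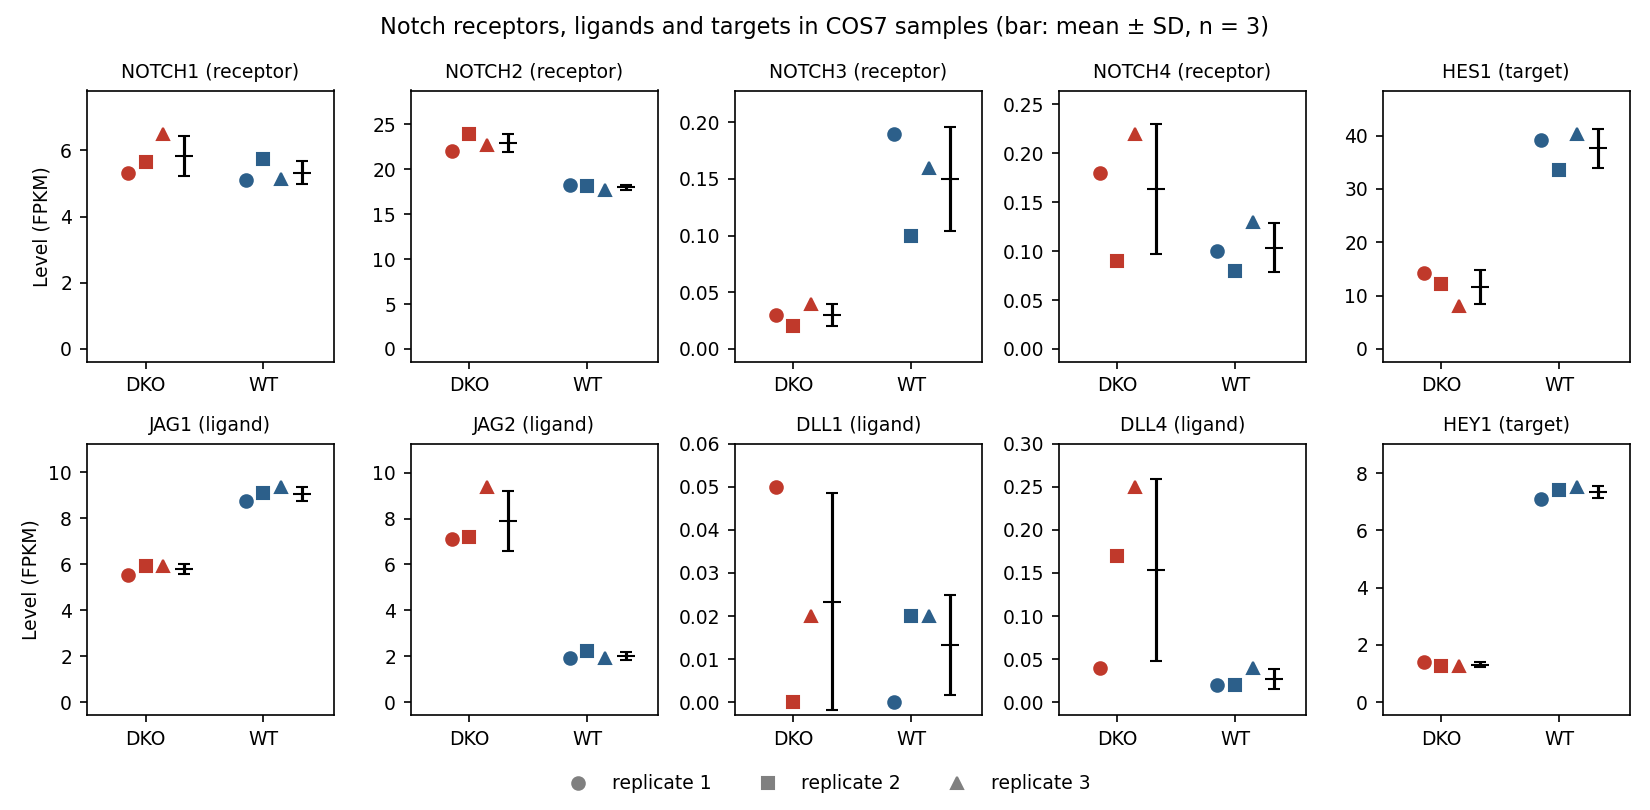
Level of each of the 10 Notch genes in FPKM (y axis, a linear scale of its own per panel) in the DKO and WT samples, with 1 symbol per replicate and the mean ± SD (n = 3) beside them. HES1, HEY1, JAG1 and NOTCH3 lie lower in all DKO samples, JAG2 and NOTCH2 lie higher, and the groups overlap for NOTCH1, NOTCH4, DLL1 and DLL4.

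The receptors were dominated by NOTCH2 in both genotypes. NOTCH2 (gene ID 103224078), a broadly expressed receptor, had 22, 23.94 and 22.67 FPKM in the DKO samples, against 18.2, 18.09 and 17.66 FPKM in the WT samples. All DKO values lay above all WT values, and the spread within each genotype was small. The log2 fold change was 0.38 (SE 0.08, 95% interval 0.18 to 0.58, edgeR adjusted p = 0.0092). This call was lost when any 1 WT sample was left out, with edgeR adjusted p-values of 0.055, 0.051 and 0.059 without WT replicates 1, 2 and 3.

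NOTCH1 (gene ID 103239621), the receptor known from T cell and skin biology, had 5.33, 5.66 and 6.51 FPKM in DKO, against 5.10, 5.74 and 5.15 FPKM in WT. The groups overlapped, and only DKO replicate 3 lay above every WT sample. The log2 fold change of 0.17 was not past the threshold (SE 0.13, edgeR adjusted p = 0.34) and has a 95% interval of -0.15 to 0.49, or 0.903-fold to 1.4-fold. Summed counts behind these values were 2232 in DKO and 2069 in WT.

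NOTCH3 (gene ID 103234066), a receptor of vascular smooth muscle and pericytes, was near the limit of detection. It had 3, 2 and 5 counts (0.03, 0.02 and 0.04 FPKM) in DKO, against 23, 12 and 19 counts (0.19, 0.10 and 0.16 FPKM) in WT. Every DKO value was below every WT value, and the change on the log2 scale was -2.33 (SE 0.42, edgeR adjusted p = 0.0037). As a ratio of summed counts per library total, 10 against 54, DKO stood at 0.189 of WT, with an exact 95% counting interval of 0.0858 to 0.375 that covers counting error only.

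NOTCH4 (gene ID 103221706), best known from endothelial cells, had 20, 10 and 27 counts in DKO and 11, 9 and 15 counts in WT. DKO replicate 2 fell among the WT samples. Its log2 fold change was 0.76 (SE 0.39, 95% interval -0.16 to 1.68, edgeR adjusted p = 0.15). The value passed the threshold without DKO replicate 2 (1.04, edgeR adjusted p = 0.035).

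Summed over the 4 receptors, whose FPKM values can be added because they are per transcript length, DKO samples held 27.5, 29.7 and 29.4 FPKM and WT samples 23.6, 24.0 and 23.1 FPKM. NOTCH2 made up 79.2 ± 1.90% of this sum in DKO and 76.3 ± 0.911% in WT (SD, n = 3 each). NOTCH1 made up 20.2 ± 1.69% in DKO and 22.6 ± 1.18% in WT. NOTCH3 and NOTCH4 together thus accounted for a small remainder, with NOTCH3 at 0.104 ± 0.0345% in DKO and 0.638 ± 0.200% in WT.

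**Figure D2:**
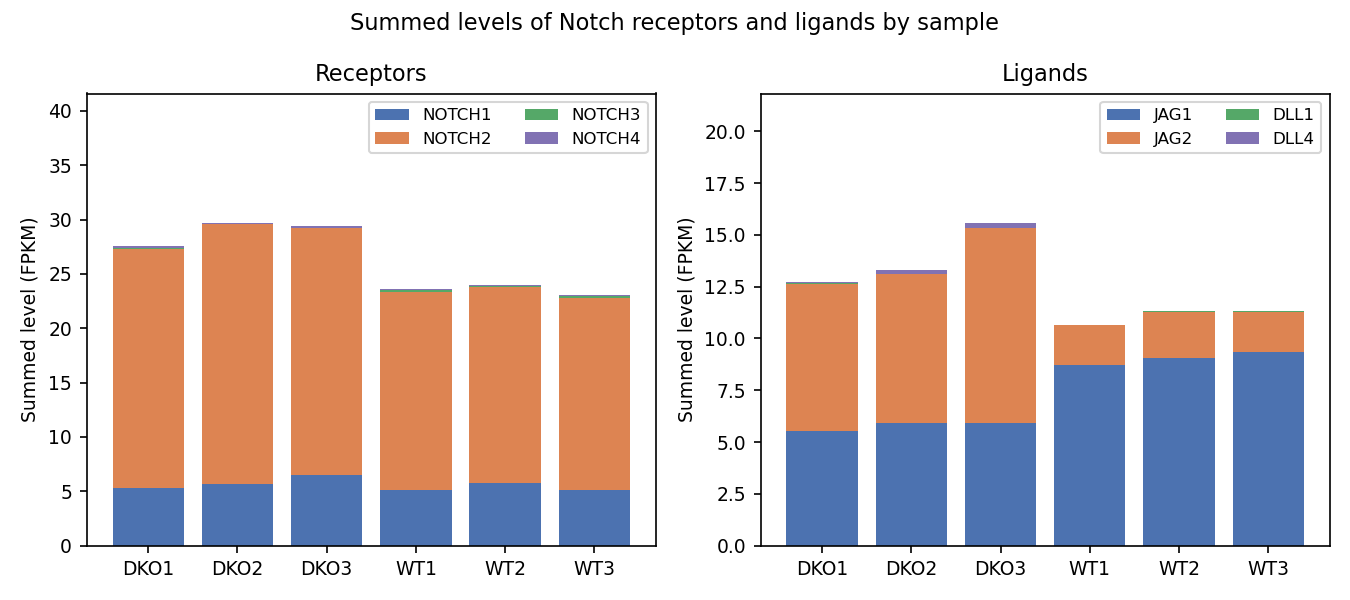
Summed FPKM (y axis, from 0) of the 4 Notch receptors at left and the 4 ligands at right in each sample, stacked by gene. NOTCH2 fills most of every receptor bar, while the ligand bars are mostly JAG1 in WT (81.5% on average) and more JAG2 than JAG1 in DKO (56.7% and 42.1%).

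The Jagged ligands moved in opposite directions. JAG2 (gene ID 103229794) had 7.09, 7.21 and 9.38 FPKM in the DKO samples, against 1.91, 2.21 and 1.93 FPKM in the WT samples. The genotypes did not overlap, and DKO replicate 3 was the highest of all. The log2 fold change reached 2.0 (SE 0.17, 95% interval 1.59 to 2.41, edgeR adjusted p = 0.00014), and 1.81 (SE 0.09) without DKO replicate 3.

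JAG1 (gene ID 103246494), the ligand mutated in Alagille syndrome in humans, had 5.55, 5.91 and 5.94 FPKM in DKO, against 8.74, 9.08 and 9.36 FPKM in WT. Here too the genotypes stayed apart, with little spread within either. The log2 fold change was -0.60 (SE 0.11, 95% interval -0.86 to -0.35, edgeR adjusted p = 0.0036).

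The ratio of JAG2 to JAG1 in FPKM was 1.28, 1.22 and 1.58 in the DKO samples and 0.219, 0.243 and 0.206 in the WT samples. JAG2 was thus the more abundant of the pair in every DKO sample and JAG1 in every WT sample. The 4 ligands summed to 12.7, 13.3 and 15.6 FPKM in DKO and to 10.7, 11.3 and 11.3 FPKM in WT. JAG2 supplied 56.7 ± 3.08% of that sum in DKO and 18.1 ± 1.27% in WT, and JAG1 42.1 ± 3.45% in DKO and 81.5 ± 1.21% in WT (SD, n = 3 each).

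Both Delta-like ligands fell under the filter on low counts. DLL4 (gene ID 103245808), the ligand of endothelial tip cells, had 2, 8 and 13 counts in DKO and 1, 1 and 2 counts in WT. In FPKM the lowest DKO sample equalled the highest WT sample at 0.04, so the genotypes met. The ratio of summed counts, 23 against 4, was 5.86 with an exact 95% counting interval of 2.0 to 23.3, and an exact two-sided permutation test on FPKM gave p = 0.2 (3 samples against 3 cannot go below 0.1). With no filter, edgeR gave DLL4 a log2 fold change of 2.44 (adjusted p = 0.043). DLL1 (gene ID 103240985), a ligand of somite and neural development, had 3 counts over the DKO libraries and 2 over the WT libraries, too few to show a difference at this depth (exact two-sided permutation p = 0.9).

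Both target genes were lower in every DKO sample. HES1 (gene ID 103241935), a repressor that also inhibits its own gene, had 14.31, 12.27 and 8.12 FPKM in DKO, against 39.09, 33.46 and 40.36 FPKM in WT. The highest DKO value was far under the lowest WT value, and DKO replicate 3 was the lowest sample. The log2 fold change was -1.67 (SE 0.19, 95% interval -2.12 to -1.21, edgeR adjusted p = 0.0005), and -1.5 (SE 0.09) without DKO replicate 3.

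HEY1 (gene ID 103237011), a repressor studied in heart and vessel formation, had 1.4, 1.25 and 1.27 FPKM in DKO, against 7.09, 7.40 and 7.52 FPKM in WT. The samples of each genotype lay close together and the genotypes far apart. Its log2 fold change of -2.44 (SE 0.13, 95% interval -2.75 to -2.13, edgeR adjusted p = 1.9e-05) was the largest in size among the 8 tested genes, with NOTCH3 at -2.33 and overlapping intervals.

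**Figure D3:**
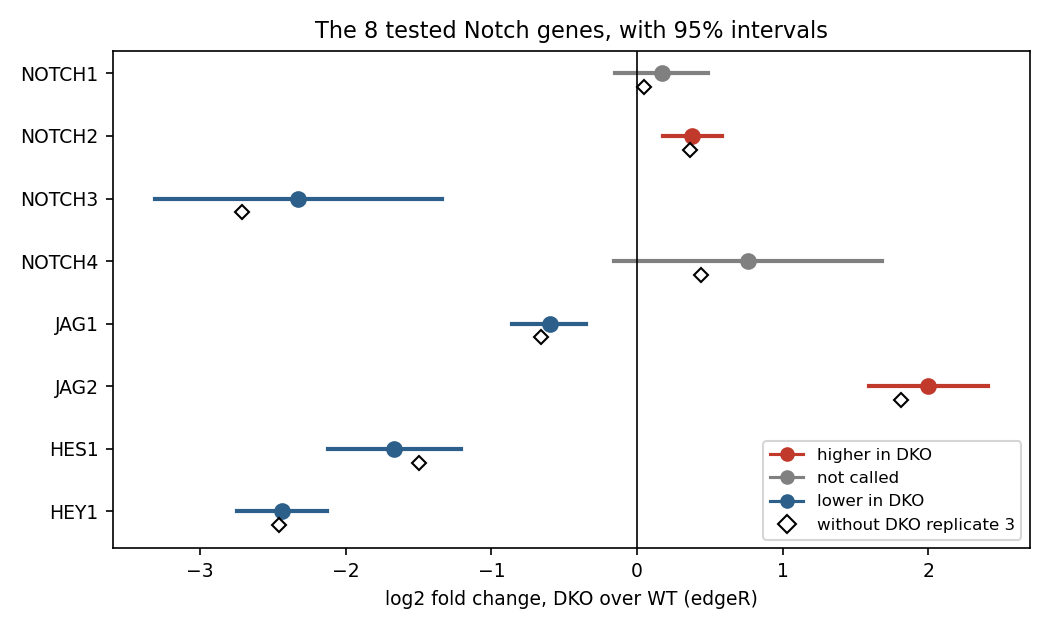
log2 fold change, DKO over WT, of the 8 tested Notch genes (x axis) with 95% intervals from edgeR, coloured by call at an adjusted p below 0.05. Open diamonds give the value without DKO replicate 3, which keeps the sign of each gene. These values run from 1.81 for JAG2 to -2.71 for NOTCH3, with NOTCH1 nearest the zero line at 0.05.

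The FPKM values of the 2 genotypes did not overlap for 6 of the 8 tested genes, where the share over all tested genes was 63.2%. The order of levels differed between the genotypes. In DKO, NOTCH2 stood first at 22.9 FPKM, followed by HES1 at 11.6 and JAG2 at 7.89, whose ranges overlapped, then by NOTCH1 at 5.83 and JAG1 at 5.8, which also overlapped, and by HEY1 at 1.31. In WT, HES1 stood first at 37.6 FPKM, followed by NOTCH2 at 18, JAG1 at 9.06, HEY1 at 7.34, NOTCH1 at 5.33 and JAG2 at 2.02, with no overlap between neighbours among these 6. Below them, NOTCH4, DLL4, NOTCH3 and DLL1 overlapped in turn in DKO, as did NOTCH3 with NOTCH4, and DLL4 with DLL1, in WT.

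Other HES and HEY genes were called in both directions. From a list of 12 further HES, HEY and feedback genes, 10 were in the table and 7 were tested, of which 4 were higher, 2 lower and 1 not called, beside 23.3% higher and 22.2% lower over all tested genes. The 5 HES and HEY genes among these 7 were 3 higher (HES2, HES7 and HEYL), 1 lower (HES4) and 1 not called (HES6). HEYL, a HEY relative of vessels and muscle, had 0.55, 0.56 and 0.72 FPKM in the DKO samples and 0.01, 0 and 0.01 FPKM in the WT samples. Its 131 summed counts in DKO against 2 in WT gave a ratio of 66.8 (exact 95% counting interval 18.1 to 557, edgeR adjusted p = 8.6e-05). HEYL passed the filter through its DKO counts alone, so its p is no support for a difference beyond the counts. HES2 had 5.03, 4.44 and 6.35 FPKM in DKO and 0.95, 1.5 and 1.13 FPKM in WT, a change of 2.20 on the log2 scale (SE 0.25, edgeR adjusted p = 0.0005). NRARP, which encodes a feedback inhibitor that binds the intracellular domain, had 4.46, 3.67 and 2.30 FPKM in DKO and 1.63, 1.94 and 1.33 FPKM in WT. The change was 1.12 on the log2 scale (SE 0.26, edgeR adjusted p = 0.011), so this target rose while HES1 and HEY1 fell.

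Among the falling genes of that list, BHLHE40, a clock-linked repressor, had 17.68, 15.62 and 18.66 FPKM in DKO and 51.36, 51.77 and 49.13 FPKM in WT (-1.51, SE 0.12, edgeR adjusted p = 0.0001). The remaining genes of this paragraph were chosen after their values were seen. HES4 averaged 0.873 FPKM in DKO and 1.47 FPKM in WT (-0.70, SE 0.17, edgeR adjusted p = 0.014, a call lost without WT replicate 1 or WT replicate 2). HES7 averaged 0.410 FPKM in DKO and 0.250 FPKM in WT (0.81, SE 0.23, edgeR adjusted p = 0.025), a call lost without any 1 sample other than DKO replicate 1, with adjusted p-values of 0.061 to 0.092, and in DESeq2. HEY2, under the filter, had 9, 16 and 14 counts in DKO and 1, 0 and 1 in WT, a ratio of 19.9 (exact 95% counting interval 5.15 to 170).

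The 9 HES and HEY genes measured summed to 25.1, 22.4 and 21.5 FPKM in the DKO samples and to 50.8, 46.1 and 51.9 FPKM in the WT samples. HES1 and HEY1 made up 49.9 ± 10.5% and 5.69 ± 0.188% of this sum in DKO, and 75.8 ± 2.83% and 14.8 ± 1.08% in WT. HES2 made up 23.1 ± 5.54% in DKO and 2.43 ± 0.725% in WT (SD, n = 3 each).

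**Figure D4:**
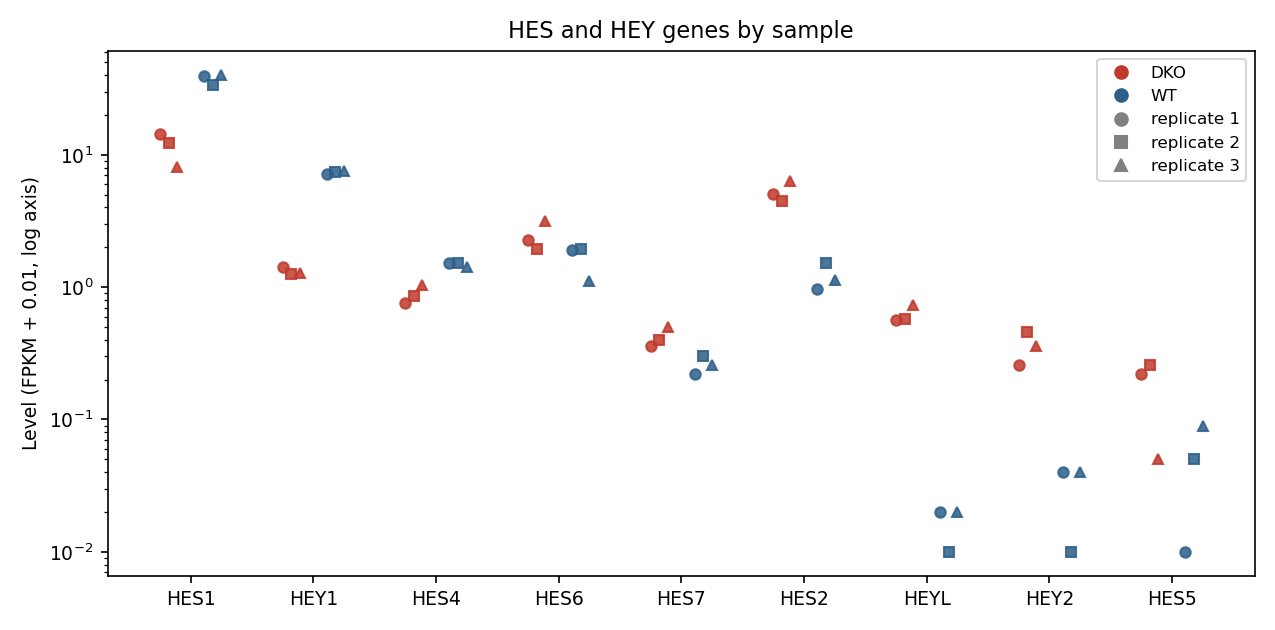
Level of 9 HES and HEY genes in each sample as FPKM + 0.01 on a log axis, DKO left of WT for each gene. HES1, HEY1 and HES4 lie lower in all DKO samples, HES2, HES7, HEYL and HEY2 lie higher, and for HES6 and HES5 the genotypes overlap.

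The wider pathway was read from 8 lists with 78 genes, of which 75 were in the table and 69 were tested. Of these 19 were higher, 12 lower and 38 not called, or 44.9% called beside 45.5% of all genes. Their median log2 fold change was -0.03 and its median size 0.43, close to the -0.01 and 0.47 of all tested genes. Of the 69, 5 reached the filter's minimum in all samples of only 1 genotype, HEYL, HES7 and DTX4 in DKO and NEURL1 and BEND6 in WT. All 5 were called. HEYL and NEURL1 reached it in 0 samples of the other genotype, so their entry was tied to a difference. HES7 and DTX4 also reached it in 2 WT samples, and BEND6 in 1 DKO sample. The count of lower genes depended on the samples: it was 30 of 70 tested without DKO replicate 3 and 7 without WT replicate 1 or WT replicate 2. The count of lower genes over all tested genes moved in the same directions. Whether the shifts differed in size between the lists and all genes was not tested. Over all genes tested, 38.6% were lower without DKO replicate 3, beside 22.2% with all samples. Their count of lower genes was 2904 with all samples and 2146 without WT replicate 1.

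**Figure D5:**
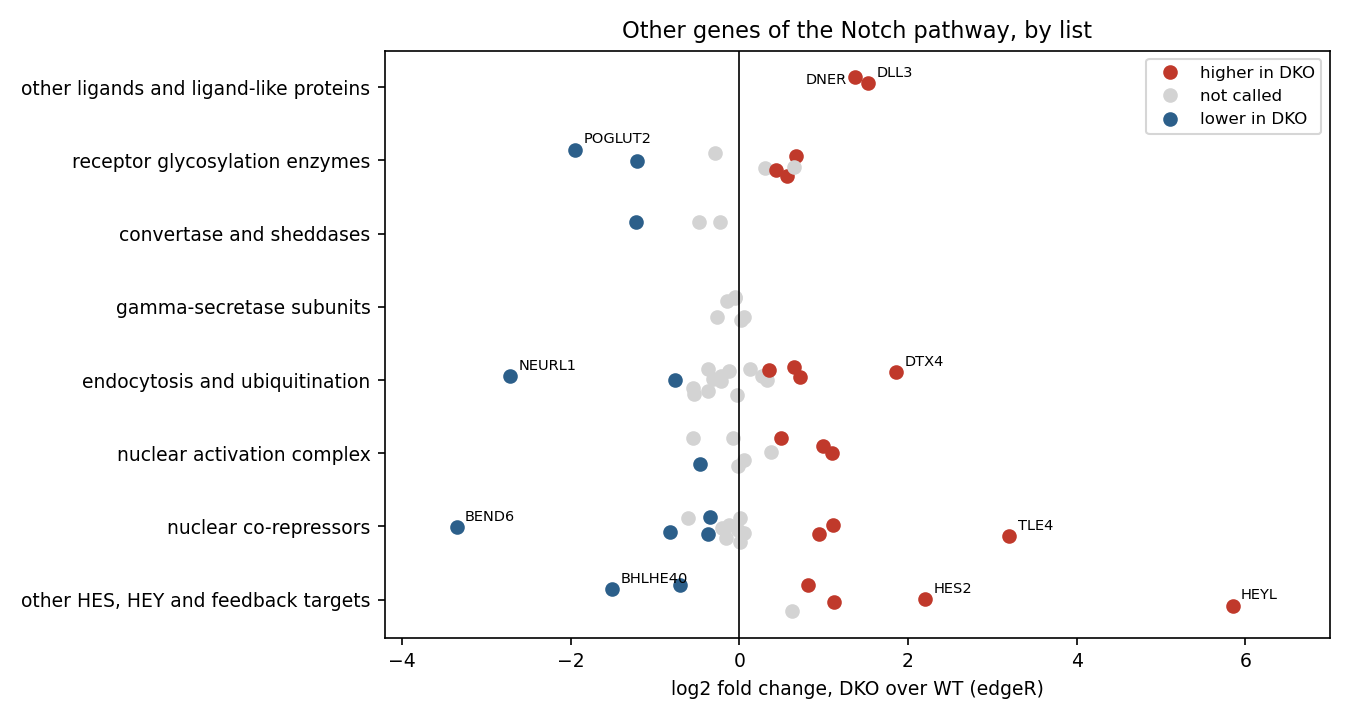
log2 fold change, DKO over WT (x axis), of the 69 tested genes of 8 further Notch pathway lists, 1 point per gene and coloured by call. The gamma-secretase subunits lie near 0 with none called, while the list of HES, HEY and feedback targets spreads from -1.51 for BHLHE40 to 5.85 for HEYL.

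Upstream of the receptor, the ligand-like genes DLL3 and DNER were higher in DKO, while DLK2, under the filter, had 0, 3 and 4 counts in DKO and 15, 15 and 9 in WT (ratio 0.183, exact 95% counting interval 0.0691 to 0.414). DLL3, an atypical Delta-like protein that inhibits Notch signalling in cis, had 3.78, 3.85 and 3.82 FPKM in DKO and 1.27, 1.28 and 1.53 FPKM in WT (1.53, SE 0.14, edgeR adjusted p = 0.00016). Its level was therefore above those of DLL1 and DLL4 in every sample. DNER, a neuronal transmembrane protein with EGF-like repeats, averaged 1.26 FPKM in DKO and 0.513 FPKM in WT (1.37, SE 0.20, edgeR adjusted p = 0.0015).

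Of 8 enzymes that add sugars to the receptors' EGF-like repeats, 3 were higher and 2 lower, or 62.5% called beside 45.5% of all tested genes. LFNG, a fringe that changes which ligands a receptor answers to, had 14.49, 15.33 and 20.71 FPKM in DKO and 39.23, 42.68 and 40.20 FPKM in WT. All DKO samples were well below WT, with DKO replicate 3 nearest (-1.21, SE 0.19, edgeR adjusted p = 0.0019). POGLUT2, an O-glucosyltransferase, had 21.60, 20.42 and 13.60 FPKM in DKO and 73.93, 68.88 and 74.55 FPKM in WT (-1.95, SE 0.17, edgeR adjusted p = 0.00016). POFUT1, which adds the O-fucose that fringes extend, averaged 48.0 FPKM in DKO and 29.0 FPKM in WT (0.67, SE 0.09, edgeR adjusted p = 0.0010). RFNG, another fringe, averaged 42.1 FPKM in DKO and 30.4 FPKM in WT (0.57, SE 0.19, edgeR adjusted p = 0.047), a call lost without any 1 WT sample and in limma, as voom or on log2 FPKM. POGLUT3 was not called with all samples (0.65, SE 0.28) but was without DKO replicate 3 (0.92, edgeR adjusted p = 2e-19). EOGT rose by less (0.43, SE 0.13, edgeR adjusted p = 0.030). This call was lost without DKO replicate 2 or any 1 WT sample. It was also lost in DESeq2, and in edgeR without the filter or with replicate number as a block.

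Among the proteases, FURIN, the convertase that cuts Notch receptors during their maturation, had 17.86, 18.67 and 22.05 FPKM in DKO and 47.11, 47.73 and 45.97 FPKM in WT (-1.22, SE 0.13, edgeR adjusted p = 0.00032). The sheddase genes ADAM10 (-0.48, SE 0.26) and ADAM17 (-0.23, SE 0.14) were not called with all samples. Without DKO replicate 3, ADAM10 was called lower by a smaller change (-0.21, edgeR adjusted p = 7.7e-05). Of the 6 gamma-secretase subunits edgeR called 0, beside 45.5% of all tested genes, with 1 lower at an unadjusted p below 0.05. DESeq2 called 0, and limma, as voom or on log2 FPKM, called 1 lower. Their median log2 fold change was -0.05. PSENEN averaged 214 FPKM in DKO and 220 FPKM in WT, and APH1A 54.4 FPKM in DKO and 58.5 FPKM in WT. Without DKO replicate 3, where 74.6% of all genes tested were called, 1 subunit was higher and 3 were lower. APH1A was among those lower (-0.15, edgeR adjusted p = 0.012).

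Of 18 tested genes of endocytosis and ubiquitination, 4 were higher and 2 lower, or 33.3% called beside 45.5% of all tested genes. NEDD4L, a ubiquitin ligase, averaged 22.2 FPKM in DKO and 14 FPKM in WT (0.72, SE 0.10, edgeR adjusted p = 0.0010). NEURL1B, a ligase of the Neuralized family that acts on ligands, averaged 7.31 FPKM in DKO and 4.78 FPKM in WT (0.65, SE 0.12, edgeR adjusted p = 0.0037). Its relative NEURL1 had 11 summed counts in DKO and 78 in WT (-2.72, SE 0.39, edgeR adjusted p = 0.0013), and it passed the filter through its WT counts alone. DTX4, a Deltex ligase, averaged 0.523 FPKM in DKO and 0.153 FPKM in WT (1.86, SE 0.31, edgeR adjusted p = 0.0027).

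In the nucleus, 3 of 9 tested genes of the activation complex were higher and 1 was lower, or 44.4% called beside 45.5% of all tested genes. MAML2, a Mastermind coactivator, had 9.54, 10.81 and 9.83 FPKM in DKO and 5.20, 5.42 and 5.01 FPKM in WT (0.99, SE 0.11, edgeR adjusted p = 0.00047). The acetyltransferase gene CREBBP fell (-0.47, SE 0.09, edgeR adjusted p = 0.0063). KAT2B (1.10, SE 0.30, edgeR adjusted p = 0.023) and KAT2A (0.49, SE 0.14, edgeR adjusted p = 0.030) rose. Both calls were lost without any 1 WT sample, and that of KAT2B also without DKO replicate 1 or DKO replicate 2. RBPJ, named for its role and outside the rule for named genes, had 10.40, 10.41 and 5.03 FPKM in DKO and 12.33, 12.84 and 13.19 FPKM in WT. DKO replicate 3 was far below the other DKO samples, and RBPJ was not called (-0.55, SE 0.25, edgeR adjusted p = 0.11), though it was called without that sample (-0.30, edgeR adjusted p = 2.5e-05).

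Of 16 co-repressor genes, 3 were higher and 4 lower, or 43.8% called beside 45.5% of all tested genes. TLE4, a Groucho-type co-repressor that HES proteins recruit, had 4.06, 4.10 and 4.56 FPKM in DKO and 0.36, 0.59 and 0.48 FPKM in WT. This 9.21-fold difference (log2 fold change 3.20, SE 0.21, edgeR adjusted p = 4.7e-05) stood beside values of -0.21 for TLE1, -0.16 for TLE2 and -0.02 for TLE3, none of them called by edgeR with all samples. Without DKO replicate 3, TLE1 (-0.28, edgeR adjusted p = 5.5e-05) and TLE2 (-0.52, edgeR adjusted p = 0.00031) were called lower, and TLE3 was not called (-0.08). BEND6, a co-repressor of Notch targets described in mouse neural cells, had 0.31, 0.23 and 0.15 FPKM in DKO and 2.62, 2.26 and 2.68 FPKM in WT (-3.35, SE 0.22, edgeR adjusted p = 4.4e-05). RITA1, which exports RBPJ from the nucleus, averaged 45.0 FPKM in DKO and 24.1 FPKM in WT (0.95, SE 0.17, edgeR adjusted p = 0.0032). The deacetylase gene HDAC2 averaged 136 ± 49.1 FPKM in DKO and 64.5 ± 3.29 FPKM in WT (1.11, SE 0.25, edgeR adjusted p = 0.0092).

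Markers of cell types in which Notch genes are prominent were read beside these values. Among those tested, 5 passed the filter through 1 genotype alone, VWF, CNN1 and KRT19 through DKO and CDH1 and ESRP1 through WT. Of 7 endothelial markers in the table, 2 passed the filter, and the list summed to 0.93 to 1.3 FPKM in DKO and 0.73 to 1.43 FPKM in WT. PECAM1 had 8 summed counts in DKO and 17 in WT, and KDR and ERG had at most 2 in either genotype. VWF averaged 0.243 FPKM in DKO and 0.0433 FPKM in WT (edgeR adjusted p = 0.0014). Of 6 smooth muscle markers 4 were tested and 3 were higher, TAGLN, SMTN and CNN1, or 75.0% called beside 45.5% of all tested genes. TAGLN was not called without WT replicate 1 or 2, nor SMTN without WT replicate 1 or 3. The list summed to 95.4 to 127 FPKM in DKO and 66.3 to 73.4 FPKM in WT, with ACTA2 and MYH11 at 2 to 4 summed counts per genotype. DES, the other tested marker, was at -0.64 on the log2 scale and not called, and was called lower without DKO replicate 3 (-1.15, edgeR adjusted p = 0.00033). Of 8 epithelial markers 7 were tested, and 2 were higher and 4 lower, or 85.7% called beside 45.5% of all tested genes. That list summed to 529 to 691 FPKM in DKO and 709 to 802 FPKM in WT. Lower were CLDN4, at 0.823 FPKM in DKO and 48.2 FPKM in WT, and CDH1, at 0.0867 FPKM in DKO and 4.84 FPKM in WT. So were ESRP1, at 0 FPKM in DKO and 1.24 FPKM in WT, and KRT18, at 106 FPKM in DKO and 189 FPKM in WT. EPCAM was higher, at 32.0 FPKM in DKO and 12.9 FPKM in WT (edgeR adjusted p = 0.0016). So was KRT19, at 1.15 FPKM in DKO and 0.24 FPKM in WT (edgeR adjusted p = 0.007). KRT8, the most abundant of the list, averaged 451 FPKM in DKO and 508 FPKM in WT and was not called with all samples. Of 8 fibroblast markers in the table, 1 was higher and 2 lower, with the list at 1500 to 1550 FPKM in DKO and 3330 to 3420 FPKM in WT. PDGFRB was the higher, at 5.35 FPKM in DKO and 0.587 FPKM in WT. FN1 was lower, as was COL1A1, at 1.06 FPKM in DKO and 7.4 FPKM in WT. Of 4 immune markers in the table, 1, LYZ, was higher (edgeR adjusted p = 0.012, and 0.051 without WT replicate 3), the list summed to 8.96 to 22.9 FPKM in DKO and 6.96 to 7.87 FPKM in WT, and PTPRC had 1 summed count in DKO and 31 in WT. The part of these shifts in the values of the Notch genes was not tested, and in bulk RNA fewer cells with a transcript and less of it per cell cannot be told apart.

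The nearest tested genes on either side of each Notch gene, in the RefSeq order of assembly mChlSab1.0.hap1, were also examined. Of these 20 neighbours 5 were higher, 2 lower and 13 not called, or 35.0% called beside 45.5% of all genes. Both neighbours of JAG2 were called higher with all samples. GPR132, which encodes a G protein-coupled receptor, averaged 5.28 FPKM in DKO and 1.26 FPKM in WT (2.10, SE 0.22, edgeR adjusted p = 0.00036), and NUDT14 averaged 20.0 FPKM in DKO and 12.4 FPKM in WT (0.74, SE 0.24, edgeR adjusted p = 0.041, but 0.14 without WT replicate 1 or WT replicate 3 and 0.058 without DKO replicate 2). NBPF8 beside NOTCH2 was higher (0.76, SE 0.14, edgeR adjusted p = 0.0036), SEC22B on its other side was not called (-0.25, SE 0.23), and of the 6 neighbours of HES1, HEY1 and JAG1 edgeR called 0, with 1 higher and 2 lower at an unadjusted p below 0.05 and 2 lower in DESeq2. Without DKO replicate 3 it called 2 of these 6 higher and 3 lower, where 74.6% of all genes tested were called. ZC2HC1A (-0.91, SE 0.32, edgeR adjusted p = 0.054) and TPD52 (-0.95, SE 0.39, edgeR adjusted p = 0.086), on the sides of HEY1, were among those lower without DKO replicate 3 (-0.60 and -0.58). In that annotation 0 other genes overlapped any of the 10.

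HES1 had the highest mean FPKM of the 10 over all 6 samples, though NOTCH2 was higher in DKO, and the genes with the most similar profile over the 6 samples were PLSCR1, ZNF776 and NT5C2. Their centred log2 profiles differed from that of HES1 by a root mean square of 0.0492, 0.0787 and 0.0836, the smallest among 13093 tested genes. Their log2 fold changes were -1.63, -1.71 and -1.59, near the -1.67 of HES1. Shared regulation was not tested, and profiles over 6 samples of 2 genotypes cannot tell it apart from a like fold change.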

How the data were processed

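Per the file headers, the authors deposited estimated counts and FPKM per gene for each sample. Of the estimated counts 5.8 to 6.54% per sample were not whole. FPKM values were deposited as scaled by the authors to transcript length and depth. The submitters' processing notes name HISAT and Bowtie2. Versions, counter, strand setting and build: not given in the sources used here. Another 9 columns, of 3 other samples, were left out.

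Rounded counts went into edgeR 4.0.16 under R 4.3.3 (quasi-likelihood test, TMM, filter at a minimum count of 10, Benjamini-Hochberg adjustment over all tested genes, no covariate). SE is the size of the log2 fold change over the root of F and can be under counting error at low counts. Alternatives used limma 3.58.1 and DESeq2 1.42.0. Gene IDs matched RefSeq for 92.7%, used only for the order of genes. Figures used matplotlib 3.10.9.

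The members and lists were chosen with earlier results of these data known. Genes named were the 10 members, ATL2 and ATL3, up to 4 called genes of smallest adjusted p per pathway list (else up to 2 of highest level), up to 3 markers of highest level per list, neighbours of called members and the 3 genes most like the highest member. Others are values given beside these, chosen after their values were seen. They are the sheddases, RBPJ, the TLE relatives, DLK2, RFNG, POGLUT3, DES, EPCAM, KRT19, CDH1, ESRP1, PDGFRB, markers at low counts, HES4, HES7 and HEY2.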

Additional observations from a re-analysis of the deposited data

How the results depend on the processing

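Over 14 alternatives the 8 tested Notch genes gave 112 values: 107 kept direction and side of the threshold, 4 lost the call (NOTCH2 each time), 1 gained it (NOTCH4 without DKO replicate 2) and 0 changed direction. The count of Notch genes lower in DKO was 4 in every alternative. Among these, NOTCH3 passed the filter on low counts through its WT counts alone. The count higher was 2, and 1 with the replicate block; leaving out 1 sample at a time it ranged from 1 to 3, and with no filter on low counts it was 3, DLL4 being added. Leaving out 1 sample at a time, the other pathway genes lower numbered 7 to 30 and higher 14 to 22, and all genes numbered 2105 to 4770 higher and 2146 to 5110 lower, the highest counts for lower genes and all genes being without DKO replicate 3. The replicate numbers did not pair the samples (correlations of same-numbered deviations 0.0215, -0.284 and -0.29). With the block NOTCH2 had an edgeR adjusted p of 0.066, and 14 other pathway genes were higher and 9 lower. Calls of EOGT, RFNG and HES7 (edgeR adjusted p = 0.1 each), KAT2A (0.074) and NUDT14 (0.072) were also lost with it. For 67 of the other named genes, 938 values held 854 that stayed on their side, 49 lost and 26 gained calls and 9 reversed. All 9 were in genes not called. PSENEN (0.02) was -0.01 with library totals and with no filter, and -0.04 in limma on log2(FPKM + 1) and on log2(FPKM + 0.1). Leaving out 1 sample at a time, PSENEN ranged from -0.03 to 0.05, KRT8 (-0.10) from -0.33 to 0.01 and ESAM (0.06) from -0.23 to 0.35. The cause was not tested. On log2(FPKM + 1) the change of NOTCH3 shrank to -0.16, since the pseudocount exceeds its level. At 3 samples a group, depth limits NOTCH3, NOTCH4, DLL1 and DLL4 most.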
